A study of Mus musculus with 10 samples.

Results

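The integrated stress response was followed through 10 of its genes in embryonic mouse hearts: Atf4, Atf3, Ddit3, Trib3, Chac1, Asns, Sesn2, Psat1, Slc1a4 and Ppp1r15a. They were taken as a named set and matched by symbol to the Ensembl identifiers of the count table. All 10 were found among its 49662 genes, and all 10 belong to the 17204 genes that had an estimate in every group and at least 10 fragments in some group. Trib3 was the one member that lay over 2-fold above the control hearts, both under gestational hypoxia and with an Nkx2-5 mutation. Slc1a4 and Ppp1r15a were over 1.5-fold higher in both groups, though the model error of Ppp1r15a, explained below, was large. Atf4, Asns and Psat1 were at most 1.14-fold above control values, and Ddit3 differed by less than its wide model error. Red cell markers were also higher in both groups, and their part in these values was not tested.

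The integrated stress response begins when a kinase phosphorylates the translation initiation factor eIF2. In mammals these kinases are HRI, PKR, PERK and GCN2, which answer to haem deficiency, double-stranded RNA, unfolded protein in the endoplasmic reticulum (ER) and amino acid shortage. Most translation then slows, but the Atf4 mRNA, held back by upstream open reading frames at other times, is translated more. The ATF4 protein binds C/EBP-ATF response elements in genes for amino acid supply, stress control and cell death, so that the response can act with little change in Atf4 mRNA. In developing red cells, HRI couples globin synthesis to haem supply.

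RNA was sequenced from whole E12.5 hearts of embryos carried by wild-type 129/Sv mothers. The study's methods name heterozygous Nkx2-5 knock-in sires, and the labels allow for wild-type sires as well. Wild-normoxia (4 samples) holds wild-type embryos kept at normal oxygen, wild-hypoxia (3 samples) holds wild-type embryos whose mothers lived in 14% oxygen from gestation day 10, and mutant-normoxia (3 samples) holds embryos at normal oxygen with 1 mutant allele of Nkx2-5, a cardiac homeobox transcription factor. Each sample combined 2 to 3 hearts, and the knock-in allele, a missense change, is carried in every cell from conception. The questions were what oxygen does to the wild-type heart, what the mutation does, and how alike both are.

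The table gives 1 estimated count per gene and group, so no value of a single sample, no spread between samples and no test over samples could be had. A model variance stands beside each count. It was divided by the number of samples and gave the model standard error (SE) of each log2 fold change. The totals were 18.54 M, 19.58 M and 18.68 M fragments in wild-normoxia, wild-hypoxia and mutant-normoxia. Cardiomyocyte markers were abundant, with a sum over 8 genes between 439399 and 475920 fragments. Nkx2-5 itself had 3689, 4131 and 4106 fragments, which does not check the genotype, since the knock-in allele is transcribed too. The median log2 fold change over all compared genes was -0.02 in wild-hypoxia and -0.01 in mutant-normoxia. Hearts of the groups differed in markers of other cells: red cell, liver and keratinocyte genes moved with both groups, with values given beside the results they touch.

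Promoter sequence shows which members carry the element that ATF4 binds close to their start. The windows were RefSeq's, on GRCm38.p6, from 250 bases before to 50 bases after each start, with 11 windows for the 10 genes, since Psat1 has 2. The core of the C/EBP-ATF response element, TGATGNAA, was searched on both strands, as was the cAMP response element, TGACGTCA, which ATF3 and other factors of its family bind. Their matches did not overlap in any of the 10 genes, and the ER stress response element was searched as well. The stretches that hold a match are shown because Trib3 and Slc1a4, the members farthest from control hearts in model SE, are among them. Each reads 5′ to 3′ along the gene, and capitals mark the match.
Trib3 (chr2:152344036-152344096, minus strand): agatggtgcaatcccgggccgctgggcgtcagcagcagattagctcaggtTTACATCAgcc
Slc1a4 (chr11:20332690-20332767, minus strand): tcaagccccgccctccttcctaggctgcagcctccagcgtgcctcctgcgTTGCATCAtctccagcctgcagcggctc
Asns (chr6:7693205-7693282, minus strand): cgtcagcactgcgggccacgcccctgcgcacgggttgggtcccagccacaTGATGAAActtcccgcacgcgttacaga
Atf3 (chr1:191183416-191183493, minus strand): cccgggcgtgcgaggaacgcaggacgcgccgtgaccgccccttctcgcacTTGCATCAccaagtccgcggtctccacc
Chac1 (chr2:119350999-119351076, plus strand): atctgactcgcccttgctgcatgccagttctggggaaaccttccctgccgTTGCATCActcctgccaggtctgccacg
Ppp1r15a (chr7:45526253-45526330, minus strand): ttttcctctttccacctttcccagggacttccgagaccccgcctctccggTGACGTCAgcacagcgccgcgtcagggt

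The core was present in 5 of the 10 genes (Trib3, Slc1a4, Asns, Atf3 and Chac1), against 3.97% of the 32851 promoter windows. It began at base 15 of the transcript in Trib3 and 4 bases before the start in Slc1a4, and lay 23 bases before the start in Asns, 110 in Atf3 and 193 in Chac1. Only the Asns match reads TGATGNAA along the gene's own strand. Ppp1r15a held a cAMP response element 12 bases before its start, an element found in 1.79% of windows. No window of Atf4, Ddit3, Sesn2 or Psat1 held any of these letters, and the ER stress response element, in 0.119% of all windows, was in none of the 10. A match is only a run of letters. The genes with the core include Trib3 and Slc1a4, and also Asns and Atf3, both within 1.83 model SE of wild-normoxia in either group.

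Per kilobase of exon, the members spanned a wide range in wild-normoxia hearts. The length joins all annotated exons of a gene. It is 1713 bases for Ddit3, whose longest coding transcript has 890, and 4254 for Psat1, whose longest has 2617. The order below depends on that length, which the model SE does not cover. Atf4, the central transcription factor of the response, had 1810 fragments per kb, well above all others. Psat1, an enzyme of serine synthesis, followed with 346, Ppp1r15a with 252, Asns with 229 and Atf3 with 190. Slc1a4 and Ddit3 stood together at 155 and 154, followed by Sesn2 at 97.4, Trib3 at 65.5 and Chac1 at 7.46. From Psat1 down to Trib3 each neighbour in this order was less than 3 model SE from the next; Atf4 at the top and Chac1 at the bottom were set apart by 18.3 and 8.86 model SE. Trib3 changed its place in the other groups, with 174 fragments per kb in wild-hypoxia and 145 in mutant-normoxia. It then stood above Sesn2 in both and beside Ddit3, which had 131 and 151. The model coefficient of variation was at most 21.5% for 7 members, near the median of 14.7% to 14.8% for genes with at least 100 fragments. It was larger for Ddit3 (31.5% to 38.0%), Ppp1r15a (39.4% to 47.3%) and Chac1 (40.0% to 44.1%), whose values are therefore less certain.

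**Figure D1:**
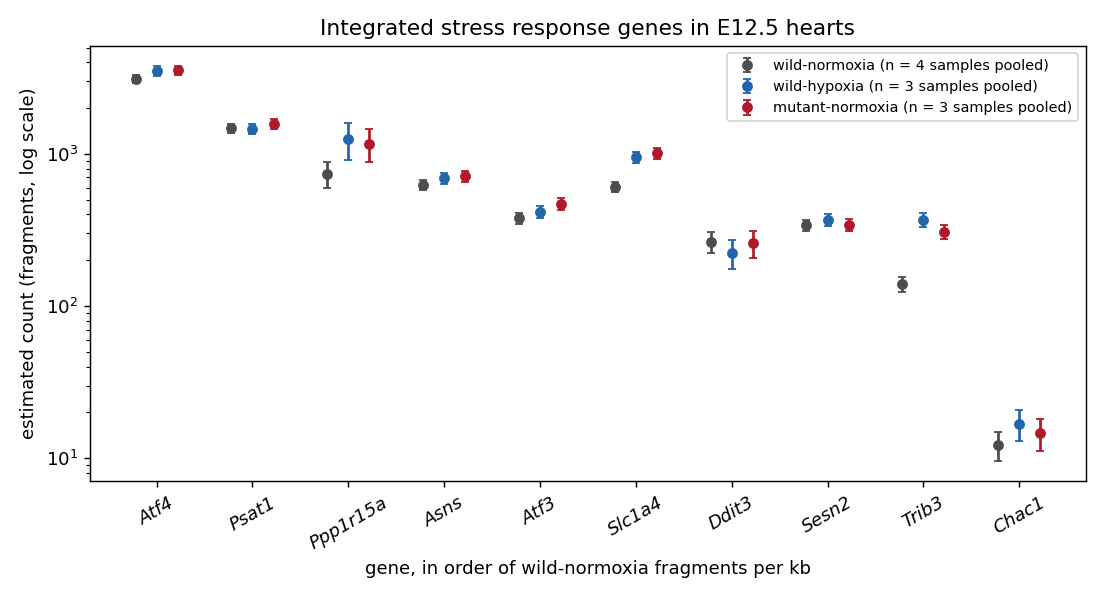
Estimated counts (fragments per group, log axis) of the 10 genes in the 3 groups, ordered by wild-normoxia fragments per kb, with bars of 1 model SE. Trib3 stands at 139 fragments in wild-normoxia against 369 and 307 in the other groups, while Atf4, Psat1 and Asns lie nearly level.

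Trib3 encodes a pseudokinase that ATF4 and CHOP induce and that holds back the same pathway and AKT signalling. The gene (ENSMUSG00000032715) lies on NCBIM37 at chr2:152163158-152169768 on the minus strand, with 6 exons. The count was 139 fragments at normoxia in the wild type, 369 in wild-hypoxia hearts and 307 in mutant-normoxia hearts. Both groups were thus above the control by more than the model error, and they lay near each other. The fold was 2.64 in wild-hypoxia, a log2 fold change of 1.40 with a model SE of 0.21, and 2.20 in mutant-normoxia, or 1.14 with a model SE of 0.22. This is 6.67 and 5.28 model SE from wild-normoxia. Among the 11742 genes with at least 100 fragments in every group, the Trib3 change was higher than that of 99.9% of genes in wild-hypoxia and 99.8% in mutant-normoxia. Wild-hypoxia exceeded mutant-normoxia by 0.26 on the log2 scale with a model SE of 0.21, a difference of 1.27 model SE. The related pseudokinase genes, Trib1 and Trib2, stayed near the control: Trib1 was at 0.05 under hypoxia and 0.01 with the mutation (model SE 0.16 in both), and Trib2 at 0.09 and -0.14 (0.14 in both).

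Atf4 (ENSMUSG00000042406, chr15:80085614-80087970, plus strand, 4 exons) had 3120, 3529 and 3542 fragments in wild-normoxia, wild-hypoxia and mutant-normoxia hearts. The log2 fold change was 0.18 in both groups, with a model SE of 0.14 in each. The mRNA of the transcription factor thus differed by less than 1.5 model SE. Atf3 (ENSMUSG00000026628, chr1:192994175-193007219, minus strand, 5 exons), a stress-induced transcription factor of the same family, had 378, 416 and 471 fragments. Its log2 fold changes were 0.14 (model SE 0.17) and 0.32 (0.17), the second being 1.83 model SE from the control. Among related factors, Jdp2, a paralogue of Atf3, was at 0.00 and -0.11 (model SE 0.21 in both), and Atf5, a paralogue of Atf4, at 0.31 (0.41) and 0.13 (0.42). Ddit3 (ENSMUSG00000025408, chr10:126727830-126733344, plus strand, 4 exons), which encodes the death-promoting factor CHOP, had 265, 224 and 259 fragments. It was the member with the lowest fold changes, at -0.24 (model SE 0.39) and -0.03 (0.36). Its exons overlap those of Mars1, the methionyl-tRNA synthetase gene on the opposite strand, which had 1296, 1290 and 1358 fragments. Whether strand was used in counting is not given in the sources used here, so reads of these neighbours may not have been told apart.

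Ppp1r15a encodes GADD34, which brings a phosphatase to eIF2 and ends the response. The gene (ENSMUSG00000040435, chr7:52778286-52781638, minus strand, 3 exons) had 740 fragments in control hearts, 1256 under hypoxia and 1165 with the mutation. These are 1.70-fold and 1.57-fold differences, higher than those of 99.3% and 99.1% of the well-counted genes. The model error was large, however, with log2 fold changes of 0.76 (model SE 0.49) and 0.65 (0.45), or 1.57 and 1.44 model SE. Exons of Tulp2 overlap it on the opposite strand, and had between 19.1 and 23.0 fragments. The constitutive paralogue of Ppp1r15a, Ppp1r15b, was at -0.04 and 0.00 with a model SE of 0.14.

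Slc1a4 encodes ASCT1, a transporter of alanine, serine and cysteine. The gene (ENSMUSG00000020142, chr11:20202183-20232716, minus strand, 8 exons) had 607 fragments in control hearts, 952 with hypoxia and 1010 with the mutant allele. The log2 fold changes of 0.65 and 0.73, both with a model SE of 0.15, were 4.20 and 4.79 model SE from the control. These folds of 1.57 and 1.66 were below 2 but higher than those of 99.1% and 99.3% of the well-counted genes. Slc1a5, which encodes the related transporter ASCT2, was at 0.12 and 0.05 with a model SE of 0.17.

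The remaining targets were near control values. Asns (ENSMUSG00000029752, chr6:7625169-7643254, minus strand, 12 exons), asparagine synthetase and a standard target of amino acid shortage, had 626, 696 and 712 fragments, or 0.15 and 0.19 on the log2 scale with a model SE of 0.16. Psat1 (ENSMUSG00000024640, chr19:15979168-16021827, minus strand, 9 exons) had 1474, 1456 and 1571 fragments, or -0.02 and 0.09 (model SE 0.14). Both amino acid enzymes thus lay within 1.2 model SE of wild-normoxia. Sesn2 (ENSMUSG00000028893, chr4:132047947-132066416, minus strand, 10 exons), an inhibitor of mTORC1 signalling, had 338, 370 and 343 fragments, or 0.13 and 0.02 (model SE 0.18). Chac1 (ENSMUSG00000027313, chr2:119176965-119180117, plus strand, 3 exons), an enzyme that degrades glutathione, had 12.2, 16.8 and 14.6 fragments. Its log2 fold changes of 0.43 (model SE 0.43) and 0.24 (0.43) rest on too few fragments to show a difference of this size. Chac2, the related glutathione-degrading enzyme, had 130, 195 and 180 fragments, or 0.59 (model SE 0.56) and 0.47 (0.54), the largest fold changes among the 9 paralogues of the members, yet within 1.05 model SE. Of the Sesn2 paralogues, Sesn1 was at 0.11 under hypoxia and 0.05 with the mutation (model SE 0.15 in both), and Sesn3 at -0.08 and -0.13 (0.14 in both). With 1 transcript searched per gene, none of its 40-base stretches occurred elsewhere in the NCBIM37 genome; exons outside that transcript, in Psat1, Ddit3, Asns, Trib3 and Ppp1r15a, were not searched.

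In wild-hypoxia, 1 of the 10 genes was over 2-fold higher, beside 1.08% of all compared genes, and 2 of 10 (Trib3 and Slc1a4) were over 3 model SE higher, beside 1.03%. In mutant-normoxia the same 2 genes were over 3 model SE higher, beside 1.45% of all genes, and Trib3 alone was over 2-fold, beside 1.59%. No member was over 2-fold or over 3 model SE lower in either group. Of all 17204 compared genes, 329 in wild-hypoxia and 85 in mutant-normoxia were over 2-fold lower, so none among 10 says little. The median log2 fold change over the members was 0.16 in wild-hypoxia, with 8 of 10 values positive, and 0.21 in mutant-normoxia, with 9 of 10 positive; over all compared genes 45.9% and 47.9% of values were positive. Without Trib3, Slc1a4 and Ppp1r15a, a group chosen after their values were seen, the other 7 had medians of 0.14 and 0.18. All 7 were within 1.83 model SE of wild-normoxia. Some still ranked high among the well-counted genes, in wild-hypoxia and mutant-normoxia in turn. Atf4 was higher than 90.5% and 92.3% of them, Asns than 87.4% and 92.5%, and Atf3 than 85.9% and 96.8%. Sesn2 was higher than 83.7% and 59.8%, Psat1 than 48.6% and 81.5%, and Ddit3 than 8.86% and 41.9%. Both comparisons use the same wild-normoxia value, so a low or high estimate there would move both folds together.

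**Figure D2:**
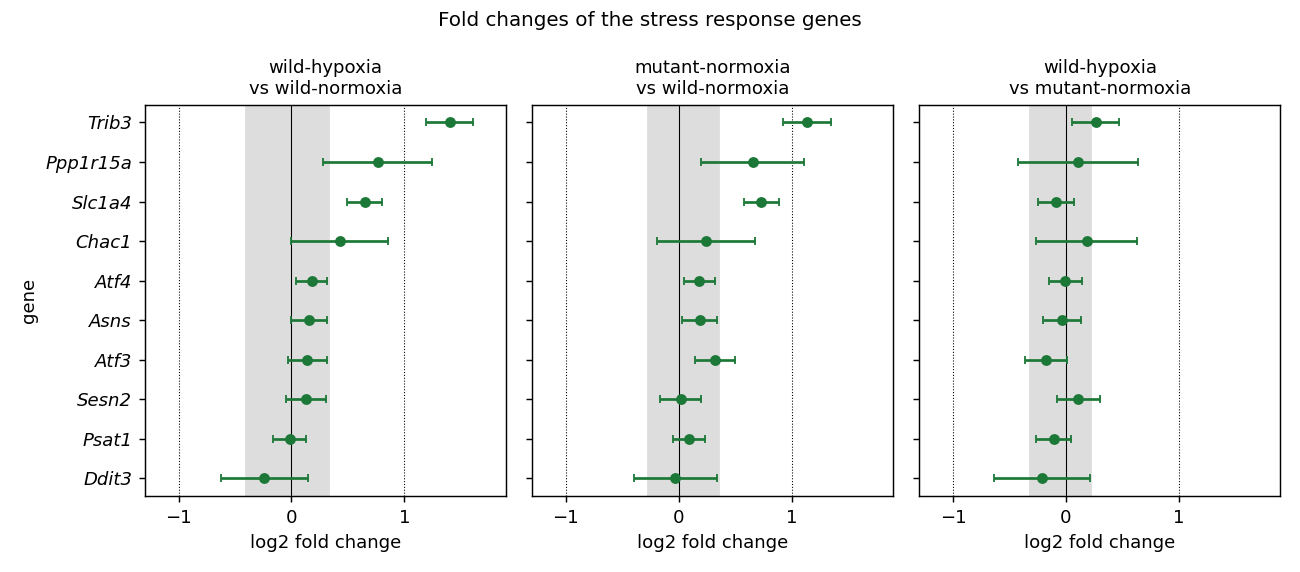
Log2 fold changes of the 10 genes (points, with bars of 1 model SE) in the 3 comparisons; the grey band is the central 95% of genes with at least 100 fragments in every group and dotted lines mark 2-fold. Trib3 lies past the dotted line at 1.40 and 1.14, Slc1a4 and Ppp1r15a lie outside the band in both comparisons with the control and Chac1 at 0.43 in wild-hypoxia; in wild-hypoxia against mutant-normoxia Trib3 at 0.26 is past the band's edge of 0.23, and no gene reaches 2-fold.

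Wild-hypoxia and mutant-normoxia were also set against each other, which needs no control. None of the 10 genes was over 2-fold or over 3 model SE apart, beside 1.97% and 0.779% of all compared genes in either direction. The largest difference was 0.26 for Trib3 and the lowest -0.21 for Ddit3 (model SE 0.43). The median was -0.02, equal to that over all compared genes. Without samples to test, this does not show that the groups are alike.

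The wider pathway was read from lists of its parts. Among the 4 eIF2 kinases, Eif2ak1, which encodes HRI, had 1519, 2186 and 2130 fragments in wild-normoxia, wild-hypoxia and mutant-normoxia, with log2 fold changes of 0.53 and 0.49 (model SE 0.18 in both), 2.89 and 2.64 model SE from the control. Eif2ak2 (PKR), Eif2ak3 (PERK) and Eif2ak4 (GCN2) were between -0.08 and -0.01 in both groups. HRI was thus the kinase gene with higher values, short of the 3 model SE used here. The 7 compared subunits of eIF2 and its exchange factor eIF2B had medians of 0.10 and 0.03. The phosphatase and modulator list of 9 genes had medians of -0.05 and 0.00, with Impact, an inhibitor of GCN2, at -0.24 and -0.06 (model SE 0.15). No gene of these 3 lists was over 2-fold or 3 model SE away in either direction.

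Further lists covered enzymes, amino acid transporters and aminoacyl-tRNA synthetases, families that include known ATF4 targets. They leave out Slc1a4 and the other stress response members described above. In these further lists no gene was over 2-fold or 3 model SE from the control in either group. The farthest in model SE was a glycine transporter. The 6 serine and one-carbon enzymes had medians of -0.01 and 0.08, the 7 other amino acid enzymes 0.04 and 0.14, and the 20 aminoacyl-tRNA synthetases 0.05 and 0.08. Single values of the 7 other amino acid enzymes reached 0.33 in wild-hypoxia and ran from -0.25 to 0.45 in mutant-normoxia. Among the 9 amino acid transporters, with medians of 0.12 and 0.18, Slc6a9, which carries glycine, had 433, 809 and 759 fragments. Its log2 fold changes were 0.90 (model SE 0.32) and 0.81 (0.30), or 2.80 and 2.70 model SE. Slc7a5, the light chain of a transporter of large neutral amino acids, had 987, 1349 and 1270 fragments, but its log2 fold changes of 0.45 and 0.36 carry model SEs of 2.32 and 2.36 and cannot be placed. The lowest transporter value was that of Slc7a3, a carrier of basic amino acids with at most 11.7 fragments, at -0.75 (model SE 0.55) and -0.19 (0.49). Slc38a2, a standard target of amino acid shortage, was at -0.26 and 0.08 (model SE 0.15), and Slc3a2, the heavy chain of several exchangers, at 0.15 and 0.23 (0.14). Of the other ATF4 and CHOP targets, 15 of 16 were compared, with medians of 0.13 and -0.00. The farthest were Vldlr, a lipoprotein receptor gene, at -0.30 and -0.33 (model SE 0.14 in both), and Bbc3, which encodes the death factor PUMA, at 0.41 (0.20) and 0.11 (0.21).

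Neighbouring stress programmes also lay near control values. The 20 genes of the ER chaperone arm had medians of -0.08 and -0.06, with 3 and 4 positive values, and its most distant gene was Canx, the chaperone calnexin, at -0.24 and -0.11 (model SE 0.16). The 7 mitochondrial stress genes had medians of 0.04 and 0.03, and the 10 p53 targets 0.06 and -0.02. None of these genes passed a fold of 2 or 3 model SE in either group. Immediate early genes, which respond quickly to many signals, had medians of 0.08 and 0.23 over 11 genes, and 2 of them were over 3 model SE higher in mutant-normoxia. Fos had 150, 158 and 288 fragments and Egr1 903, 807 and 1352, so that both were higher in mutant-normoxia, by 0.93 (model SE 0.23) and 0.58 (0.17), and were at 0.07 and -0.16 in wild-hypoxia.

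**Figure D3:**
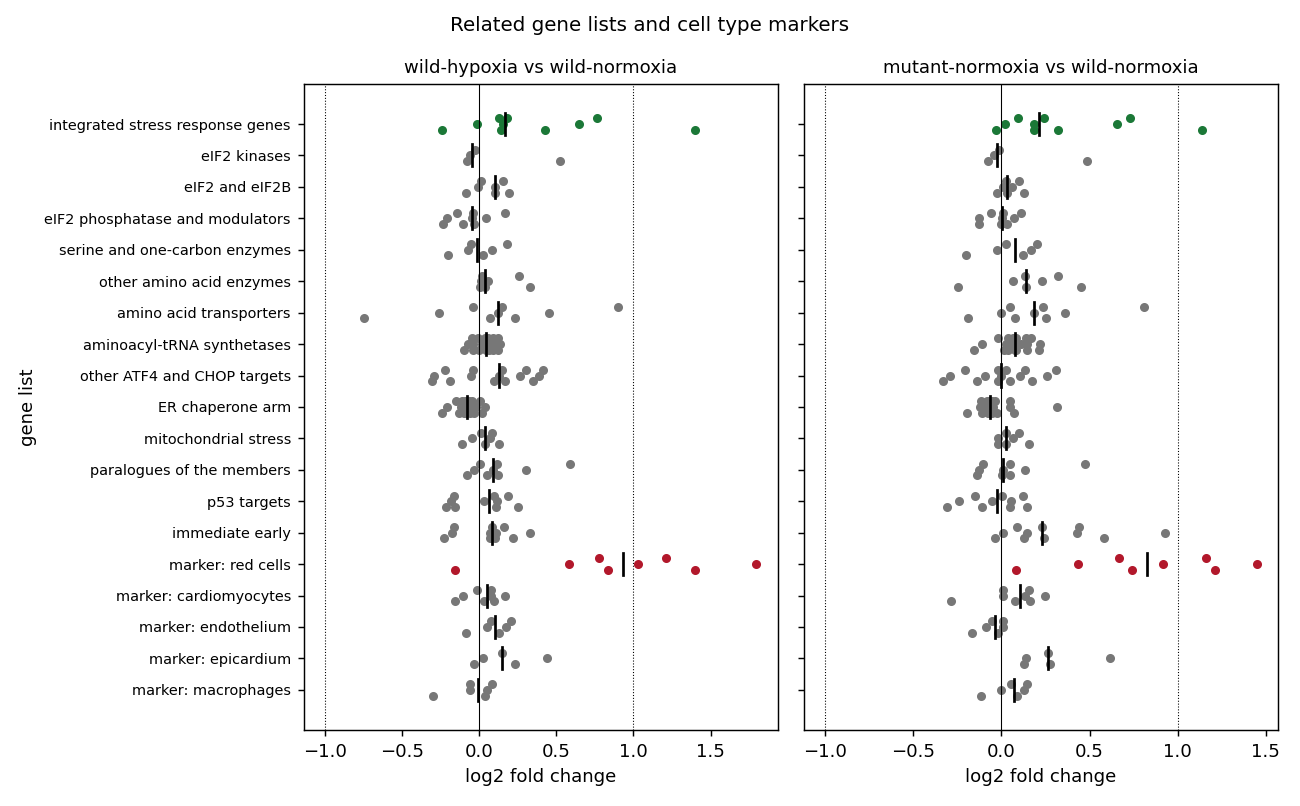
Log2 fold changes of each compared gene (points) of the 10 stress response genes, 13 related lists and 5 cell type marker lists in wild-hypoxia (left) and mutant-normoxia (right) against wild-normoxia; black bars are medians and dotted lines mark 2-fold. The red cell markers lie to the right with medians of 0.93 and 0.83, the ER chaperone genes lie near 0, and Trib3 is the one stress response gene past 2-fold. Not drawn are the liver (medians -1.45 and -1.44), keratinocyte (2.69 and 2.42) and neuron (-0.85 and 0.23) marker lists.

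The 5 genes whose log2 fold changes lay nearest to those of Trib3, by Euclidean distance over both comparisons among genes with at least 100 fragments in every group, were Ctse, Ube2l6, Hbb-bh1, Slc4a1 and Dyrk3. Their values were between 1.31 and 1.43 in wild-hypoxia and between 1.11 and 1.21 in mutant-normoxia. Hbb-bh1 encodes an embryonic globin and Slc4a1 the anion exchanger of the red cell membrane. The likeness is over 3 group values and says nothing of shared control.

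Red cell markers were higher in both groups. Of 10 listed, 8 were matched, all but Hbb-bs and Hbb-bt. None of the 8 was at 0 in any group. In each comparison 6 of 8 were over 3 model SE higher, 4 in wild-hypoxia and 3 in mutant-normoxia by over 2-fold. Their summed count was 16416 in control hearts, 36421 with hypoxia and 32477 with the mutation. Alas2, the haem synthesis enzyme of red cells, was at 1.80 and 1.45 (model SE 0.19 and 0.18), whereas Tfrc, the transferrin receptor gene that dividing cells share, was at -0.16 and 0.08 (0.14). In whole hearts, more cells of a type and more RNA per cell cannot be told apart.

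Set against Slc4a1, Trib3 was level: per 1000 Slc4a1 fragments it had 21.02 in control hearts, 21.15 with hypoxia and 20.06 with the mutation. Against the summed red cell markers it had 8.48, 10.1 and 9.46 per 1000. The other genes with higher values fell short of Slc4a1 in the 2 groups, with ratios of 91.7, 54.5 and 65.9 for Slc1a4, 112, 71.9 and 76.0 for Ppp1r15a, 229, 125 and 139 for Eif2ak1 and 65.5, 46.3 and 49.5 for Slc6a9. Atf4 went from 471 to 202 and 231. These ratios were chosen after the values were seen. Slc4a1 is among the genes named above as nearest to Trib3, so the level ratio follows from that choice. Log2 fold changes of the 8 matched red cell markers ran from -0.16 to 1.80 in wild-hypoxia and from 0.08 to 1.45 in mutant-normoxia. Hbb-bs and Hbb-bt, which were not matched, lie above the wild-hypoxia range in the study's supplemental list. Trib3, at 1.40 and 1.14, lay inside both ranges, so whether its ratio rises or falls depends on the marker used. The part of red cells in the Trib3, Slc1a4, Ppp1r15a, Eif2ak1 and Slc6a9 values was not tested.

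**Figure D4:**
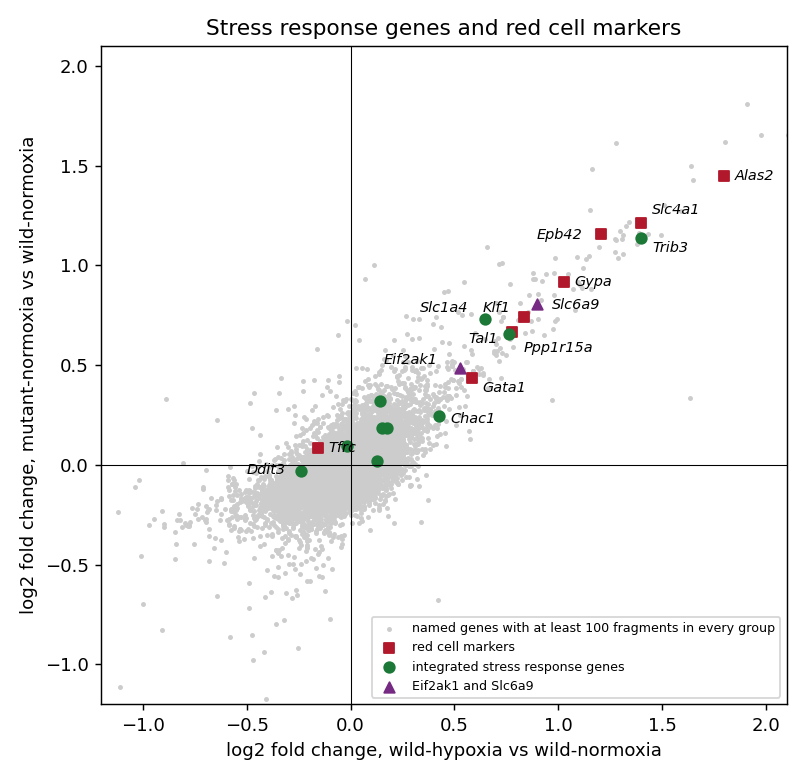
Log2 fold change in mutant-normoxia (vertical) against that in wild-hypoxia (horizontal), both relative to wild-normoxia, for named genes with at least 100 fragments in every group (grey), the 10 stress response genes (green), red cell markers (red) and Eif2ak1 and Slc6a9 (purple). Trib3 at 1.40 and 1.14 lies beside Slc4a1 at 1.40 and 1.21. Both axes share the wild-normoxia value, so an error there would move a point along the diagonal.

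Other cell markers moved too. The 6 liver genes had medians of -1.45 and -1.44 and a summed count of 4436, 1457 and 1635, and the 4 keratinocyte genes 2.69 and 2.42 with 242, 1586 and 1255 fragments. Neuron markers, 6 genes, had medians of -0.85 and 0.23. None of these genes was at 0 in any group. The medians were 0.05 and 0.11 for cardiomyocyte markers, 0.10 and -0.04 for endothelium and -0.01 and 0.07 for macrophages. The 5 epicardium markers had medians of 0.15 and 0.26, with 4 and 5 positive values, against 0.16 and 0.21 for the 10 stress response genes. Among them Aldh1a2, a retinoic acid synthesis enzyme, had 678, 921 and 1040 fragments, or 0.44 (model SE 0.15) and 0.62 (0.15), which is 2.87 and 4.05 model SE. The part of these cells in the stress response genes was not tested. The level of a member in a given cell type cannot be read from whole hearts.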

How the data were processed

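Poly-adenylated RNA of E12.5 hearts was read as single-end 40-base reads. The authors used Bowtie2, TopHat and the mm9 genome for mapping and Cufflinks for gene counts; tool versions are not given in the sources used. The deposited values are estimated counts, 1 per gene and group (4, 3 and 3 samples), with a model variance per count by the authors and a status. Status HIDATA (too many reads, listed at 0) marked 27 (wild-normoxia), 20 (wild-hypoxia) and 31 (mutant-normoxia) genes, with 1 failed estimate per group; the 34 genes without an estimate were left out.

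Folds were log2 ratios of group counts after a pseudocount of 1, which understates changes of low genes, for genes that reached 10 fragments in 1 group or more. A fold over 2 and a distance over 3 model SE were used as descriptions. Neither is a test, and the planned edgeR fit for values per sample was not run. The fold over 2 is the size threshold in the study's methods, which pair it with a P-value. The study's supplemental lists mark Trib3 and Slc1a4 as significant in both comparisons with wild-normoxia, Slc1a4 with a fold below 2. The model SE is sqrt(variance / samples), carried to the log2 scale; that the deposited variance is that of 1 sample is an assumption. SEs under 0.05 (3 genes) were dropped after the data were seen. Names covered 65.9% of genes. Scripts used Python 3.11.15, pandas 2.3.3 and numpy 2.4.6, checked on simulated data. The simulation also took the deposited variance as that of 1 sample, so it cannot check that assumption. Coordinates and exon lengths are of NCBIM37 (GENCODE annotation); 191 of 193 list genes were found.

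The members and lists were chosen with earlier results of these data known. Genes named are all members, the eIF2 kinases, paralogues of members, up to 3 genes per list with the largest distance and at least 100 fragments, and up to 5 genes nearest to each member over 2-fold. Tfrc, Slc7a5 and Slc7a3 were named after their values were seen. Alternatives were a pseudocount of 10, median-ratio scaling, a minimum of 50 fragments or none, a fold of 1.5 and an undivided variance.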

Additional observations from a re-analysis of the deposited data

How the results depend on the processing

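No paired analysis was possible because the table holds 1 value per group, and no replicate could be left out for the same reason. The count of members over 2-fold was 1, 1 and 0 in wild-hypoxia against wild-normoxia, mutant-normoxia against wild-normoxia and wild-hypoxia against mutant-normoxia, and stayed so with a pseudocount of 10, median-ratio scaling, a minimum of 50 fragments (9 members, without Chac1) and no minimum. With a fold over 1.5 it was 3, 3 and 0, the added genes being Slc1a4 and Ppp1r15a. The share of all compared genes over 1.5-fold was not counted. In wild-hypoxia, Slc1a4 and Ppp1r15a were higher than 97.5% and 98.2% of all compared genes. In mutant-normoxia they were higher than 97.3% and 96.8%. With the variance not divided by the number of samples, Slc1a4 lay 2.26 and 2.58 model SE from wild-normoxia in wild-hypoxia and mutant-normoxia, and Trib3 2.82 in mutant-normoxia, so these fell below 3. Medians over the members were 0.16, 0.18 and -0.02 with a pseudocount of 10 and 0.19, 0.22 and -0.00 with median-ratio scaling. Counts over all genes changed more. In wild-hypoxia 186 genes were over 2-fold higher and 329 lower than in wild-normoxia, against 110 and 112 with a pseudocount of 10, 103 and 84 with a minimum of 50, and 476 and 1029 with none. In mutant-normoxia 273 were higher and 85 lower, against 146 and 33, 128 and 31, and 644 and 427. Between wild-hypoxia and mutant-normoxia 41 and 298 were over 2-fold, against 19 and 103, 11 and 66, and 294 and 1026. A pseudocount of 10 left the same 17204 genes compared, whereas a minimum of 50 left 13626 and no minimum 49628. The cause of the changed counts was not tested. Chac1, with under 20 fragments in every group, is limited by depth.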
